A study of Homo sapiens with 17 samples.

Results

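Of 208775 peaks in the 8 combined Flag ChIP-seq lists of the series, 21553 lay in gene deserts, and these desert peaks are described here. A peak was counted as a desert peak when its summit lay on chromosomes 1 to 22 or X more than 500 kb from the span of any RefSeq protein-coding gene of GRCh38. The stretches at 121.7 to 125.2 Mb of chromosome 1 and at 16 to 18.1 Mb of chromosome 13 were left out. They hold 7095 peaks, among them 1129 of the 1375 SOX2 peaks and 1731 of the 7895 fusion peaks. Percentages of a list or whole list below are of its peaks on these chromosomes outside these 2 stretches. The other 178233 peaks on these chromosomes served as the rest. The rule used position alone and no measured signal. The desert peak nearest the limit was in the FOXA1 full-length list, 500.02 kb from SOX11, and the nearest peak inside it was in the FOXA1 CTD-deleted list, 499.949 kb from HTR2A.

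All lists came from U2OS, a human osteosarcoma cell line, carrying Tet-on constructs induced with doxycycline for 4 days, at 500 ng/ml in the treatment labels. The genotypes were Tet-on FOXA1, FOXA1dCTD, FOXA2, FOXA2dCTD, FOXA3, FOXA3dCTD, SOX2 and SOX2FOXA2CTD. Here dCTD is called CTD-deleted, and SOX2FOXA2CTD, SOX2 with the CTD of FOXA2, is called the fusion. Each genotype had 2 biological replicates and 1 combined list made from both, and there was 1 input. With 1 list per genotype no test between samples was possible, so every interval below is a 95% interval for counting error over peaks only, and library depth is unknown. The lists also differed in the limit of the irreproducible discovery rate (IDR), a measure of how well peak ranks agree between replicates, from 0.01003 in the FOXA3 CTD-deleted list to 0.920 in the fusion list. The expression of a construct is forced, and the labels do not say whether a line was 1 clone.

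A gene desert is a long stretch of chromosome without protein-coding genes; some deserts flank developmental regulators and hold distant enhancers, and others are made of satellite repeats around centromeres. The FOXA factors have a forkhead DNA-binding domain and SOX2 has an HMG box; all are pioneer factors, which can bind their motifs in closed chromatin. The FOXA proteins are best known for opening enhancers in liver and other endoderm, and SOX2 for its role in pluripotent and neural cells.

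Deserts still hold annotated noncoding genes, whose start sites are where a reference sequence could be set beside the peaks. In RefSeq's GRCh38.p14 promoter table, 654 windows of 300 bases around the starts of 582 noncoding genes lay in deserts, and desert peaks overlapped 35 windows of 32 genes. The motifs searched were TGTTTAC and TATTTAC for forkhead factors and ACAATG and ACAAAG for SOX factors, on both strands, with a window counted once however many matches it held. A forkhead match was in 11.4% of the 35 windows with a desert peak (4 windows, interval over windows 4.54 to 26.0%). It was in 11.01% of all desert windows and in 5.97% of all 34961 windows of the table. A SOX match was in 40% of the windows with a peak, in 42.4% of all desert windows and in 24.4% of the whole table. Windows with and without a peak were thus close in both shares, but the 35 windows are few, some overlap each other, and the interval is wide. Desert windows as a class had a lower median GC content than all windows, 39.3% against 58.7%. A match is a description of the letters and not a bound site.

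A few of these windows are printed 5′ to 3′ on the strand of the gene, since they are the ones where the sequence under desert peaks can be read: 3 are overlapped by peaks of 4 lists, and 2 by peaks of 3 lists and also hold a forkhead match. Capitals mark forkhead and SOX matches on either strand. LOC105371204 is at chr16:35506360-35506659 on the plus strand, LOC105372074 at chr18:38490235-38490534 on the minus strand and LINC03051 at chr3:117997530-117997829 on the minus strand. LOC105369453 is at chr11:97796867-97797166 and LOC101926953 at chr3:117719683-117719982, both on the plus strand. All 5 are long noncoding RNA genes.
LOC105371204: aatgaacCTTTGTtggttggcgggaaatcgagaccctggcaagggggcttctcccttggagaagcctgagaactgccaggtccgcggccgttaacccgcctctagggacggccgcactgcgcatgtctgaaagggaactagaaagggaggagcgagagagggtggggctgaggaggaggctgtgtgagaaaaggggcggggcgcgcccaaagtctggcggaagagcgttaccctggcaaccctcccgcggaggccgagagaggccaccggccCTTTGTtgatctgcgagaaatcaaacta
LOC105372074: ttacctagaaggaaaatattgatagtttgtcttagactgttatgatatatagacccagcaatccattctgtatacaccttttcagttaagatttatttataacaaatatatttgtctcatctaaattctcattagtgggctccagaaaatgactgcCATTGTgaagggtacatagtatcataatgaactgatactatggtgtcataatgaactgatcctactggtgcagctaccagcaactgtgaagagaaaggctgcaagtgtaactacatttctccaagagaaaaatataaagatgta
LINC03051: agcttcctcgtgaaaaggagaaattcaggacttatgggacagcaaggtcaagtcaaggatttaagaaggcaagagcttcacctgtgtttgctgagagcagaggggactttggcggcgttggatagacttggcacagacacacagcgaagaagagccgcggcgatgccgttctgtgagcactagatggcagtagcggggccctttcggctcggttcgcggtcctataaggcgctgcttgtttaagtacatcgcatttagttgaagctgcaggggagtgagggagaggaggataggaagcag
LOC105369453: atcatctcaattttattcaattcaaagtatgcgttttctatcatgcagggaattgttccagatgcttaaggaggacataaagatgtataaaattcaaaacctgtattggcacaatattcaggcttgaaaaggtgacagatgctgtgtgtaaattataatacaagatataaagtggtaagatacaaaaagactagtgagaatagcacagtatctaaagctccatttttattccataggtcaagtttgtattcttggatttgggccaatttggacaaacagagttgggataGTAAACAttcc
LOC101926953: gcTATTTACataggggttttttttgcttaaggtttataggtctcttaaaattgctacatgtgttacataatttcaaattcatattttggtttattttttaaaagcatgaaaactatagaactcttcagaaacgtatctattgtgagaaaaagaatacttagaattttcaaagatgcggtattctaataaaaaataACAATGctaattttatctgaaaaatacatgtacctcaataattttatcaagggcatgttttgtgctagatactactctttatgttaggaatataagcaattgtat

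The window of LOC105372074 was overlapped by peaks of all 4 FOXA1 and FOXA2 lists, of which the FOXA1 full-length peak alone covers the start itself. The window holds 1 SOX match and 0 forkhead matches. The authors' −log10 p values in the 2 replicates there were 8.00 and 5.46 for FOXA1 at full length, 6.95 and 15.0 after CTD deletion, 4.71 and 8.00 for FOXA2 at full length and 6.19 and 11.1 after deletion. Their summits lay 266 to 355 bases upstream of the start, beyond the printed window. The LINC03051 window has neither motif, and its peaks came from FOXA1 at full length, FOXA2 without its CTD and both FOXA3 lists, with summits 26 to 49 bases upstream of the start. The 2 FOXA3 lists have the same row here, with −log10 p of 7.31 and 6.95. The LOC105371204 window was overlapped by FOXA2 full-length, both FOXA3 and fusion peaks, and holds 2 SOX matches. The fusion peak there reached −log10 p of 5.97 and 3.74. At LOC105369453 the FOXA1 CTD-deleted peak had 5.41 and 5.32, and the FOXA2 full-length peak only 2.27 and 1.74. At LOC101926953 the FOXA1 CTD-deleted peak reached 10.2 and 16.3, with its summit 560 bases upstream.

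Desert peaks made up 9.48% of the FOXA1 full-length list (3465 of 36551 peaks, interval 9.18 to 9.78%) and 11.2% of the FOXA1 CTD-deleted list (5467 of 48947, 10.9 to 11.5%). The share was thus 1.69 percentage points higher without the CTD (1.28 to 2.10), and it was higher on 21 of 23 chromosomes. FOXA2 went the other way. Its desert share was 12.9% at full length (5708 of 44283, 12.6 to 13.2%) and 10.3% without the CTD (5412 of 52557, 10.0 to 10.6%). That is a difference of −2.59 points (−3.00 to −2.19), with the CTD-deleted share higher on 0 of 23 chromosomes. The FOXA3 shares were lower and close to each other, 6.54% (333 of 5091) and 6.24% (375 of 6008), a difference of −0.299 points (−1.22 to 0.611). SOX2 had the highest share, 46.6% (110 of 236, 40.4 to 53.0%), against 11.2% for the fusion (683 of 6113, 10.4 to 12.0%). The difference was −35.4 points (−41.9 to −29.1). These 236 are what remained of 1375 SOX2 peaks, of which 1129 lay in the 2 stretches left out, so the share depends on that exclusion.

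Many of these desert peaks lay at or next to centromeres. Each chromosome has a longest stretch without any annotated gene, mostly around its centromere or over the short arm of an acrocentric chromosome; together these gene-free stretches cover 171 Mb. They held 93.6% of the SOX2 desert peaks (103 of 110), 46.1% of the fusion's (315 of 683), 32.0% of those of FOXA2 at full length (1827 of 5708) and 22.2% of those of FOXA2 without its CTD (1199 of 5412). FOXA3 had 19.2% of its full-length and 11.2% of its CTD-deleted desert peaks there. For FOXA1 it was 1.27% (44 of 3465) and 1.94% (106 of 5467), far below the FOXA2 values. The 2 stretches that the rule leaves out on chromosomes 1 and 13 had the opposite order. They held 668 FOXA1 full-length and 1158 FOXA1 CTD-deleted peaks, against 354 and 309 of FOXA2.

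Outside these stretches the desert shares of full-length FOXA1 and FOXA2 came closer together, and those of their CTD-deleted forms moved apart. FOXA1 had 9.38% at full length and 10.99% without its CTD, and FOXA2 had 9.17% and 8.22%. The FOXA1 difference hardly moved, at 1.61 points (1.20 to 2.02). The FOXA2 difference shrank to −0.951 points (−1.32 to −0.588), and the CTD-deleted share was then higher on 6 of 23 chromosomes. The SOX2 share fell to 5.83% (7 of 120), the fusion's to 6.42%, and their difference became 0.590 points (−5.16 to 3.64), an interval that includes 0. The stretch ends at the nearest annotated gene, so peaks beyond that gene count as outside it, also near a centromere. On chromosomes 14, 21 and 22 it is only the first 16.0, 5.01 and 10.7 Mb. The peaks of the desert before OR11H1 on chromosome 22 (155 and 107 of FOXA2) thus count as outside. So do those between TPTE and POTED on chromosome 21, with 119 and 67 FOXA2 and 1 and 1 FOXA1 peaks. Values outside the stretches therefore still include some deserts rich in FOXA2 peaks. The SOX2 pair was sensitive to the threshold too: with both lists held to the stricter IDR limit the difference was −7.32 points (−17.98 to 3.85, which includes 0), among equal numbers of the strongest peaks −20.3, and in the lists of the first replicate −4.76, where 17.5% of 13677 SOX2 peaks and 12.7% of 42150 fusion peaks were in deserts. The FOXA3 lists share 5012 identical rows, 269 of them desert rows. Of the 64 desert rows found in the full-length list alone, 53 were in gene-free stretches. Once the shared rows were taken out of that list the difference of the pair was −16.3 points.

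**Figure D1:**
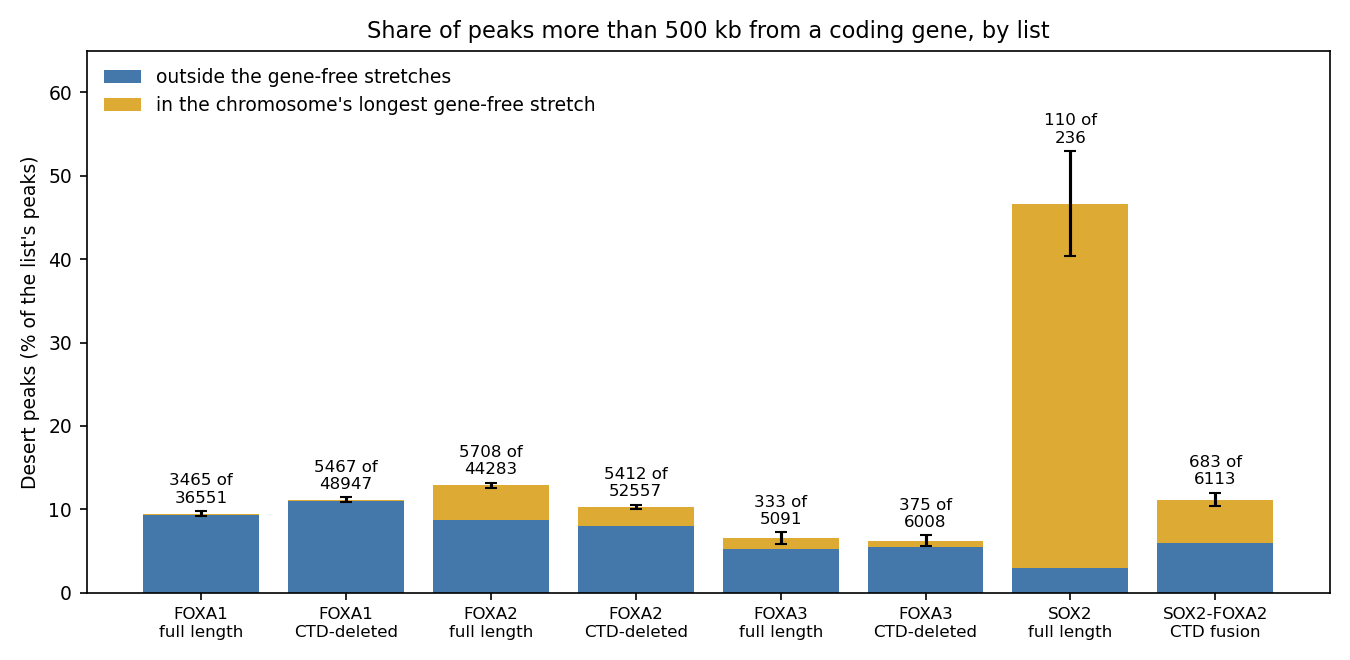
Bars show the percentage of desert peaks among each list's peaks on chromosomes 1 to 22 and X outside the stretches that the rule leaves out. Bars are split by whether the desert peaks lay in a chromosome's longest gene-free stretch. Error bars are 95% Wilson intervals of the whole bar. SOX2 stands highest at 46.6%, nearly all of it in the gene-free stretches, while FOXA1 bars have almost none there.

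Deserts cover 13.3% of the territory considered (401 of 3024 Mb), of which 158 Mb lies in the gene-free stretches; unsequenced gaps could not be subtracted. Outside the stretches, deserts are 243 Mb, or 8.51% of what remains. There FOXA1 without its CTD had 22.02 peaks per Mb of desert against 16.6 per Mb of the rest, a ratio of 1.33. The ratio was 1.11 for FOXA1 at full length (14.1 and 12.6 per Mb), 1.08 for FOXA2 at full length (15.9 and 14.7) and 0.962 for FOXA2 without its CTD (17.3 and 17.98). Desert density was lower than that of the rest for FOXA3, with ratios of 0.608 and 0.636, for the fusion with 0.738 and for SOX2 with 0.666, the last from 7 desert peaks.

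Outside the gene-free stretches, both FOXA1 lists and the FOXA2 full-length list were denser beyond 1000 kb than within 50 kb of a coding gene. With the stretches counted in, these lists had fewer peaks per Mb beyond 1000 kb, over a territory that includes unsequenced gaps. FOXA1 at full length then had 4.77 peaks per Mb against 12.8 within 50 kb, and 7.48 against 14.3 after deletion. FOXA2 at full length had 12.6 against 13.5. The values by distance class that follow leave the stretches out. FOXA1 CTD-deleted peaks numbered 14.3 per Mb within 50 kb of a coding gene, 18.6 at 250 to 500 kb, 22.01 at 500 to 1000 kb and 22.04 beyond 1000 kb. FOXA2 full-length peaks were sparsest at 50 to 250 kb, with 11.8 per Mb, and reached 17.5 beyond 1000 kb. FOXA2 without its CTD went from 18.5 per Mb within 50 kb to 16.8 beyond 1000 kb. FOXA3 peaks thinned out instead, from 2.10 per Mb within 50 kb of a gene to 0.939 beyond 1000 kb at full length, and from 2.45 to 1.14 after deletion. Within the gene-free stretches the FOXA2 full-length list still had 11.6 peaks per Mb, 0.726 of its density in other deserts, and the FOXA1 full-length list had 0.279 per Mb. SOX2 was the reverse, with 0.653 per Mb inside the stretches and 0.0288 in other deserts.

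**Figure D2:**
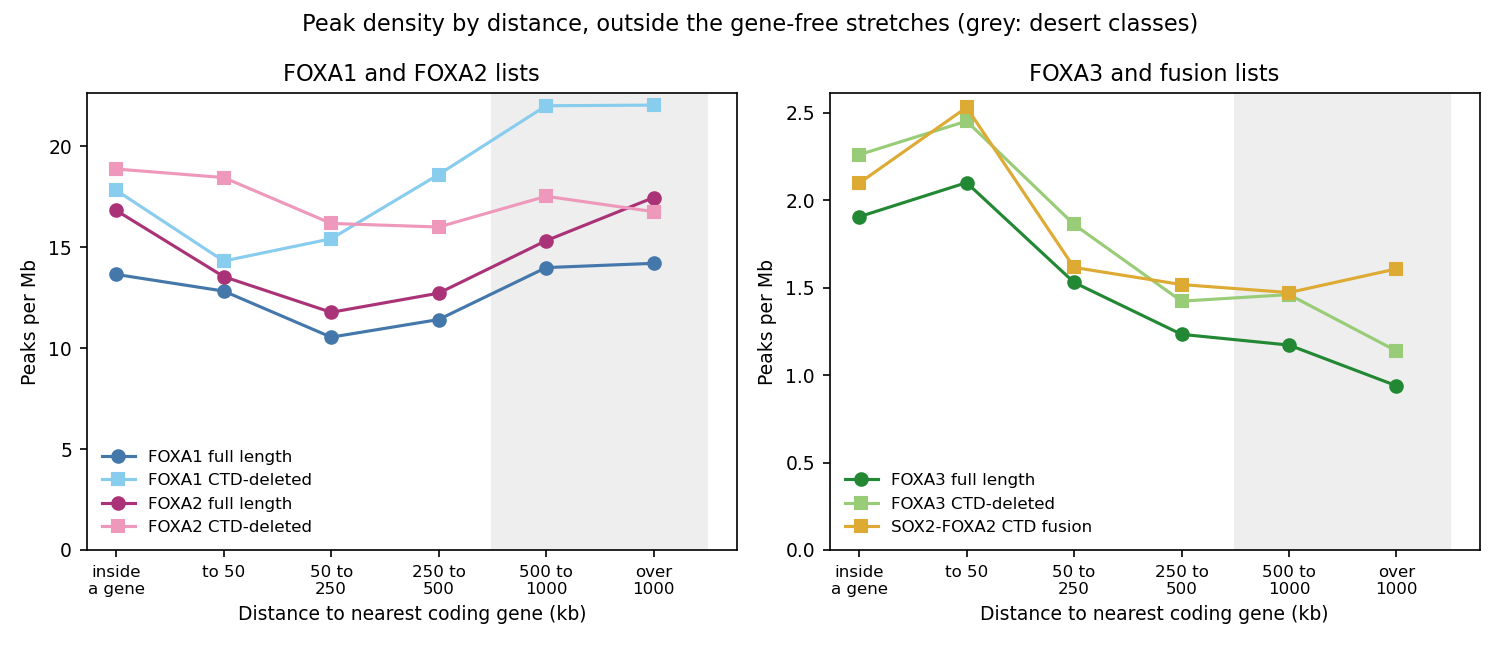
Points show peaks per Mb (vertical axis) in classes of distance to the nearest coding gene (horizontal axis, kb), outside the gene-free stretches, for the FOXA1 and FOXA2 lists on the left and the FOXA3 and fusion lists on the right; SOX2, with 7 desert peaks there, is not drawn. FOXA1 CTD-deleted density was 22.01 and 22.04 per Mb in the desert classes, and FOXA3 densities were lowest beyond 1000 kb.

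The strongest desert peaks of each list were taken by strength, the lower of the 2 replicate −log10 p values. For FOXA1 at full length both lay on chromosome 5 between CTNND2, a catenin of neuronal junctions, and DNAH5, a dynein of motile cilia. The first, at chr5:12599148-12599981 inside the noncoding gene LINC01194, had −log10 p of 40.6 and 39.7 and was 695 kb from CTNND2. The same site reached 19.3 and 58.4 in the FOXA1 CTD-deleted list, 8.28 and 10.99 for FOXA2 at full length and 12.96 and 17.8 after deletion. Both values of each FOXA1 list were thus above both values of each FOXA2 list. The second, at chr5:12830962-12831625, had 33.6 and 40.0 and was also in all 4 lists.

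For FOXA1 without its CTD, the second strongest desert peak, at chr18:77923095-77924010, was 646 kb from GALR1, a galanin receptor, with SALL3, a zinc finger transcription factor, on its other side. It had 30.2 and 44.7, and peaks of the other 3 FOXA1 and FOXA2 lists overlapped it.

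For FOXA2 without its CTD, the second strongest desert peak was in a gene-free stretch and had no FOXA1 peak. It lay at chr19:26978578-26978958, between ZNF254 and UQCRFS1, a subunit of respiratory complex III, and had −log10 p of 38.3 and 30.3. The same site was second strongest for FOXA2 at full length too, with 21.9 and 26.6. Its values were higher without the CTD; p-values depend on depth, so such differences between lists are descriptions.

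FOXA3 led elsewhere. The strongest desert peak without its CTD was on the short arm of chromosome 21, at chr21:8392363-8396303, over RNA45SN3, a copy of the ribosomal RNA precursor gene. It was 3941 bases wide and had 78.5 and 27.6, against 26.4 and 21.5 at full length, where it ranked second. The next was over another copy, RNA45SN1, with 69.7 and 25.3. These ribosomal genes are near-identical repeats, so which copy the reads came from is uncertain. Both FOXA2 lists had a peak at each of these 2 sites, and the FOXA1 lists had none at either. Overlap with the rest of the ribosomal genes was not measured. The whole desert, between LOC102723475 and LOC101927345, held 11 FOXA1 full-length and 7 FOXA1 CTD-deleted peaks.

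The strongest desert peak of FOXA3 at full length, of SOX2 and of the fusion was 1 and the same site, at chr7:59364474-59364865 in the gene-free stretch between ZNF716 and LOC124901649. Its −log10 p values were 22.98 and 24.8 for FOXA3 at full length, 16.8 and 18.6 for SOX2, 20.7 and 21.9 for the fusion, 20.3 and 22.1 for FOXA3 without its CTD, and 21.9 and 29.6 for FOXA2 at full length. Only the FOXA1 full-length list of the 8 lacked it. The second SOX2 peak, at chr7:60522117-60522408, and the second fusion peak, at chr10:40593359-40593600, were each held by the same 7 lists. Outside the stretches the strongest fusion peak was at chr17:70792789-70793693, between KCNJ2, a potassium channel, and SOX9, the chondrocyte regulator, in no other list; its values of 60.5 and 6.93 differed widely. The strongest SOX2 peak there, at chr9:40554968-40555496, had 8.82 and 10.1.

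As a group, desert peaks were about as strong as the rest of their list. The median strength of FOXA1 peaks was 4.08 in deserts and 4.08 elsewhere at full length, and 4.37 and 4.33 without the CTD. FOXA2 had 2.27 and 2.20 at full length, and 2.96 in both without the CTD. FOXA3 had 7.75 and 7.84 at full length, and after deletion 7.53 and 7.57. SOX2 (4.46 and 3.94) and the fusion (3.01 and 2.77) were higher in deserts. In the strongest 10% of their list were 20% of SOX2 desert peaks and 18.4% of the fusion's, against 1.59% and 8.97% of their other peaks. Peaks in the gene-free stretches were narrow: the median width of FOXA3 full-length peaks was 250.5 bases there and 673 in other deserts, that of FOXA1 full-length peaks 348.5 and 690, and that of SOX2 peaks 301 and 989. The comparison is within each list, since depth is unknown.

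The member farthest from a coding gene was on chromosome 22 in every list, with OR11H1, an olfactory receptor gene, as the nearest coding gene. For 5 lists, both FOXA1 lists, both FOXA2 lists and the fusion, it was 1 site, 4841 kb away, with lower −log10 p values of 2.20 to 6.18. Both FOXA3 lists had the same row at chr22:10734724-10735487, 4793 kb away, with 12.7 and 25.9, and the SOX2 peak was 4567 kb away.

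Clustering was measured as the share of peaks with another summit of the same list within 10 kb. For FOXA2 at full length it was 50.1% in deserts against 36.96% in the rest, 38.7% over the whole list, a difference of 13.2 points (11.8 to 14.6). For FOXA1 it was 34.4% against 31.5% at full length (31.8% in the whole list) and 44.0% against 37.03% after deletion (37.8% in the whole list). FOXA2 without its CTD had 46.9% against 41.3% (41.8% in the whole list), a difference of 5.65 points (4.25 to 7.05). The fusion had 18.6% against 13.5% (14.1% in the whole list), a difference of 5.11 points (2.22 to 8.33). For FOXA3 at full length (9.31% and 8.30%, 8.37% in the whole list), FOXA3 after deletion (6.93% and 9.50%, 9.34% in the whole list) and SOX2 (9.09% and 7.94%, 8.47% in the whole list) the interval of the difference included 0.

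Without the gene-free stretches the FOXA2 difference fell to 3.38 points at full length and to 0.684 after deletion (−0.864 to 2.24), whereas those of FOXA1 were 3.21 and 7.49. The fusion's was then 3.47 points (−0.0738 to 7.68), and its interval included 0. Keeping peaks with an IDR of at most 0.05 gave 4.51 points for FOXA2 at full length and 12.2 after deletion. At that limit the interval included 0 for the fusion (6.06, −6.78 to 19.6) and for FOXA1 at full length (1.69, −0.437 to 4.06). A denser list has more neighbours whatever its positions, so values of unequal lists are not comparable as levels. The same holds within a list, where desert and rest differed in density. Outside the stretches the ratio of desert to rest density ran from 0.608 to 1.33, the highest for FOXA1 without its CTD. The clustering differences were not adjusted for density, and whether they exceed it was not tested. Runs of 3 or more summits spaced by at most 10 kb held 26.9% of the FOXA2 full-length desert peaks and 16.1% of those outside the stretches, against 13.6% of its other peaks. For FOXA1 without its CTD the runs held 18.04% in deserts and 12.97% elsewhere. The longest desert run was 19 summits of FOXA2 without its CTD over 75.3 kb of the chromosome 19 stretch. The longest FOXA1 run was 9 summits at full length over 34.2 kb, at chr5:26107311-26141557, between the cadherin genes CDH10 and CDH9.

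Sharing was asked first within each pair, as the percentage of peaks overlapped by at least 1 base by the partner list. It was 59.8% of FOXA1 full-length desert peaks (2072 of 3465) against 55.4% of the rest, 55.8% over the whole list, a difference of 4.41 points (2.68 to 6.11). With both lists held to the stricter limit that difference was 1.12 points (−1.58 to 3.63). In the other direction 38.0% of FOXA1 CTD-deleted desert peaks were shared against 42.2% of the rest, 41.8% in the whole list, a difference of −4.20 points (−5.56 to −2.83). For FOXA2 the order was turned. Its full-length desert peaks were shared less often than the rest (46.8% and 51.8%, 51.2% in the whole list, difference −4.95, −6.34 to −3.56). Its CTD-deleted desert peaks were shared more often (49.3% and 42.3%, 43% in the whole list, difference 6.99, 5.59 to 8.40). Outside the gene-free stretches these FOXA2 differences were −2.66 and 3.00 points, with the same signs.

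FOXA3 sharing rests on the rows that both lists have in common. It was 92.2% in deserts and 98.7% in the rest at full length (98.3% in the whole list), a difference of −6.55 points (−9.94 to −4.10). Outside the gene-free stretches that became 0.127 points, at the stricter limit 0, and with the shared rows left out −13.4. After deletion FOXA3 had 81.9% and 83.4% (83.3% in the whole list), with an interval of −5.82 to 2.21. Of the SOX2 desert peaks 54.5% were overlapped by the fusion list, against 46.0% of the rest and 50% in the whole list (difference 8.51, −4.22 to 20.9). Of the fusion's desert peaks 8.78% were overlapped by the SOX2 list, against 1.09% of the rest and 1.95% in the whole list, a difference of 7.70 points (5.77 to 10.1). Outside the stretches the last difference was −0.0801 points, from 3 shared peaks of 368.

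**Figure D3:**
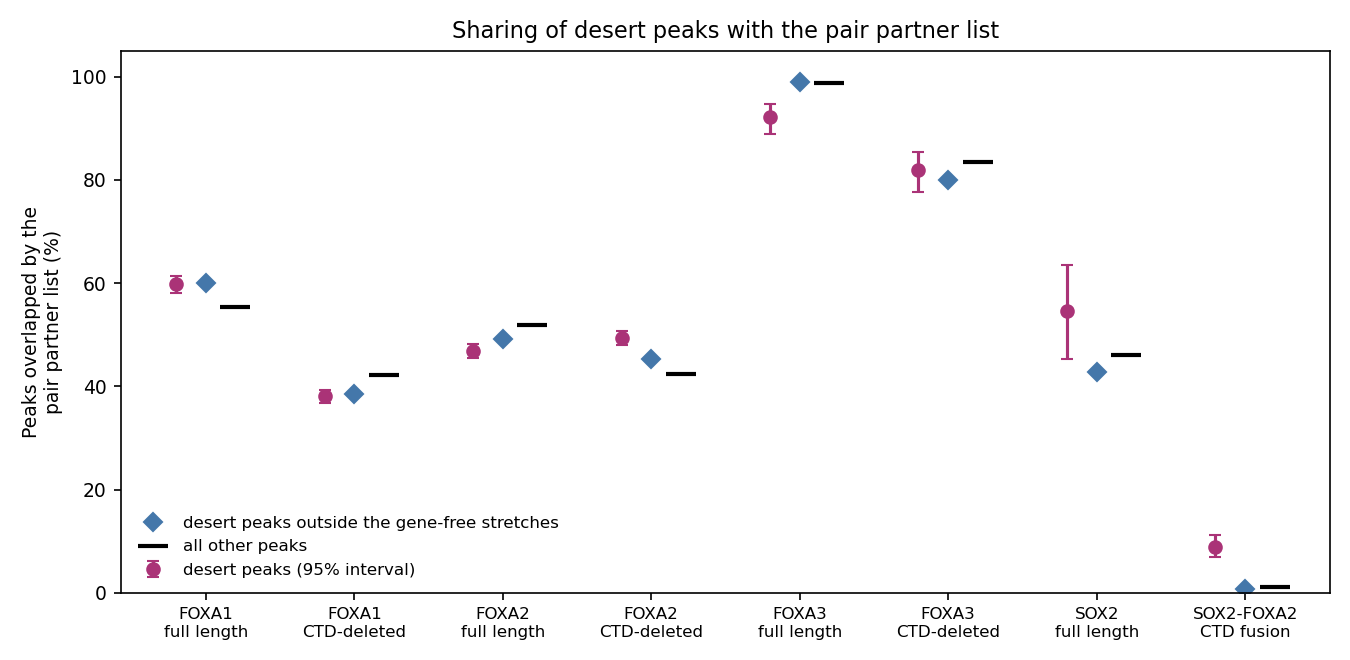
For each list, the percentage of peaks overlapped by the pair partner list is drawn for desert peaks with 95% Wilson intervals, for desert peaks outside the gene-free stretches and for all other peaks. Desert peaks lie above the rest for FOXA1 at full length (59.8% against 55.4%) and FOXA2 without its CTD (49.3% against 42.3%), and below it for their partners.

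Within a list, shared desert peaks were the stronger ones. Of the strongest 25% of FOXA2 full-length desert peaks 75.7% were overlapped by the CTD-deleted list, and of the weakest 25% it was 26.6%. For FOXA1 at full length these were 79.0% and 45.2%, and for FOXA1 without its CTD 60.2% and 23.5%. Nearest summits of overlapping desert peaks lay a median of 43 bases apart in the FOXA1 pair and 31 in the FOXA2 pair. Neither measure was taken for the other peaks, so these values do not set desert peaks apart from them.

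Sharing between FOXA1 and FOXA2 was lower over all deserts than elsewhere in the comparisons made. Full-length FOXA2 peaks overlapped 43.7% of full-length FOXA1 desert peaks and 47.9% of the rest (47.5% in the whole list). Full-length FOXA1 peaks overlapped 26.6% of full-length FOXA2 desert peaks against 41.2% of the rest (39.3% in the whole list), a difference of −14.6 points (−15.8 to −13.3). In the gene-free stretches only 22 of 1827 FOXA2 full-length desert peaks, 1.20%, were overlapped by a FOXA1 full-length peak, and in other deserts 38.6%. Between the CTD-deleted lists, FOXA2 overlapped 38.4% of FOXA1 desert peaks against 47.3% of the rest (46.3% in the whole list), and FOXA1 overlapped 38.9% of FOXA2 desert peaks against 43.6% (43.1% in the whole list). Outside the stretches the last comparison turned, with 48.3% of FOXA2 CTD-deleted desert peaks overlapped. So did that of FOXA2 full-length peaks with the FOXA1 CTD-deleted list, at 38.6% over all deserts and 55.0% outside the stretches, against 52.7% of the rest (50.9% in the whole list).

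SOX2 and fusion peaks were overlapped by FOXA2 full-length peaks more often in deserts than elsewhere. FOXA2 full-length peaks overlapped 80% of SOX2 desert peaks (88 of 110) against 31.7% of the rest, 54.2% in the whole list, a difference of 48.3 points (36.2 to 58.1). They overlapped 32.1% of the fusion's desert peaks (219 of 683) against 14.5% of the rest, 16.5% in the whole list (difference 17.5, 13.99 to 21.2). The overlap was concentrated in the gene-free stretches, where 85 of 103 SOX2 and 173 of 315 fusion peaks were overlapped. Elsewhere in deserts 3 of 7 SOX2 peaks and 46 of 368 fusion peaks, 12.5%, were. FOXA1 full-length peaks overlapped 5 of the 110 SOX2 desert peaks, 4.55%, against 25.4% of its other peaks (15.7% in the whole list). FOXA1 CTD-deleted peaks went the other way, with 29 of 110, 26.4%, against 15.1% (20.3% in the whole list, difference 11.3, 0.954 to 21.6). FOXA3 full-length peaks overlapped 32.7% of SOX2 desert peaks against 9.52% of the rest (20.3% in the whole list, difference 23.2, 12.9 to 33.3). These FOXA1 CTD-deleted and FOXA3 overlaps were all in the gene-free stretches, at 29 and 36 of 103 SOX2 peaks. In other deserts it was 0 of 7 for both.

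Merging overlapping peaks of the 8 lists gave 106613 sites, 12322 of them in deserts. Of the desert sites 43.0% were held by 2 or more lists (5297, interval 42.1 to 43.9%), against 45.4% of the other sites and 45.1% of all. The difference was −2.41 points (−3.34 to −1.48), and outside the gene-free stretches −0.865 (−1.89 to 0.166). All 4 FOXA1 and FOXA2 lists held 6.46% of desert sites (796) and 9.05% of the others, 8.75% of all. All 6 FOXA lists held 99 desert sites, 0.803% against 1.76%. The 2 FOXA3 lists share 269 identical desert rows, so such a site can count 1 row as 2 lists.

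The 2 kinds of desert differed in which factor held them. In the gene-free stretches 89.0% of 2429 sites were in a FOXA2 list and no FOXA1 list, 1.56% in a FOXA1 list and no FOXA2 list and 3.87% in both. The 2 stretches that the rule leaves out, where the FOXA1 lists had more peaks than the FOXA2 lists, are not counted. In other deserts the 9893 sites were split into 29.1%, 34.8% and 32.9%, against 34.1%, 26.2% and 35.2% of sites outside deserts. Sites of FOXA1 without FOXA2 were thus 8.56 points more frequent in deserts outside the stretches than among other sites (7.59 to 9.55). Sites with a SOX2 or fusion peak made up 14.8% in the stretches and 3.76% in other deserts, against 5.82% of sites outside deserts. Over all deserts they were 5.94%. Other deserts were thus 2.06 points below the sites outside deserts (difference −2.06, −2.44 to −1.64).

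**Figure D4:**
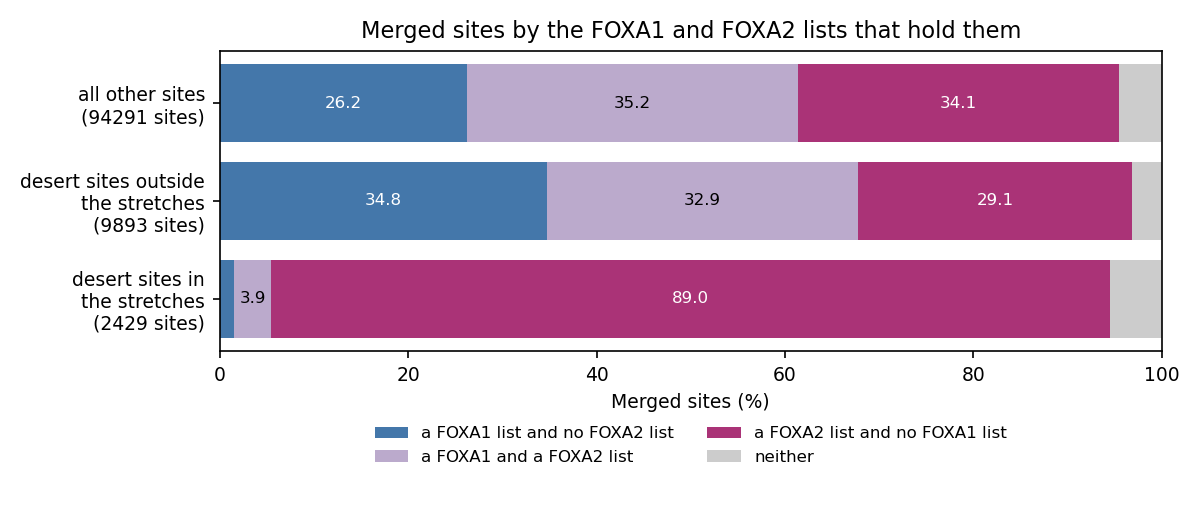
Bars give the percentage of merged sites held by a FOXA1 list and no FOXA2 list, by both, by a FOXA2 list and no FOXA1 list, or by neither, for sites outside deserts, desert sites outside the gene-free stretches and desert sites inside them. Sites in the stretches are almost all of FOXA2 without FOXA1, at 89.0%.

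One desert site was held by all 8 lists, at chr4:50720704-50721218 in the stretch between CWH43 and DCUN1D4. Its lower −log10 p was lowest for FOXA1 at full length, 3.33, and highest for FOXA3 at full length, 10.2. A further 12 sites were held by 7 lists, 10 of them in the stretches. The 12 are 0.0974% of desert sites, close to the 0.0838% (79) of the other sites that 7 lists held. All 8 lists held 3 of the other sites. The 7-list sites at chr4:50555954-50556385 and chr4:50830513-50830868 are in the same stretch as the site of all 8 lists. Outside the stretches the 7-list sites were at chr16:35304691-35307986, in the noncoding gene LOC124903768, and at chr5:89703409-89704830, in LINC02161, 800 kb from MEF2C, a muscle and neuron regulator. SOX2 was the list missing from both, and at both the 2 FOXA3 lists had the same values. At the first FOXA1 without its CTD had the highest values, 18.8 and 27.0, and the fusion the lowest, 3.20 and 3.39. Chromosome 5 also had a site of all 6 FOXA lists between CDH10 and CDH9, at chr5:25649445-25650379, again with the same values in the 2 FOXA3 lists.

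The rule divided these chromosomes into 327 deserts, and 304 of them held a site. The 10 with most sites held 2678, or 21.7% of all desert sites, and 7 of these 10 overlapped a gene-free stretch. The fullest was the stretch between ANKRD30B and ROCK1, a cytoskeletal kinase, on chromosome 18, with 373 sites. It had 265 FOXA2 full-length and 172 FOXA2 CTD-deleted peaks, 4 and 2 FOXA1 peaks, and 34 of the fusion. The one between ZNF254 and UQCRFS1 had 225 and 248 FOXA2 peaks against 5 and 4 FOXA1 peaks. Others of this kind lie between OR4C12 and OR4C46, olfactory receptor genes, with 317 sites, between CWH43 and DCUN1D4 with 283, and between ZNF716 and LOC124901649 with 207. The desert before OR11H1, with 209 sites, overlaps a stretch too, but its peaks lay outside that stretch and are counted there.

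The 3 clear of the stretches had a different make-up. The desert between PCDH7, a protocadherin, and ARAP2 on chromosome 4, at chr4:31646801-35505403, held 318 sites with 117 and 171 FOXA1 peaks and 120 and 137 FOXA2 peaks. It had 10 peaks of each FOXA3 list, 6 of the fusion and 0 of SOX2. The desert between NCAM2, a neural adhesion molecule, and MRPL39 on chromosome 21 held 183 sites, with 66 and 106 FOXA1 and 65 and 81 FOXA2 peaks. The desert between LINGO2 and ACO1, cytosolic aconitase, on chromosome 9 held 169, with 68 and 92, and 69 and 75. In all 3 the FOXA1 CTD-deleted list had the most peaks of the 8.

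**Figure D5:**
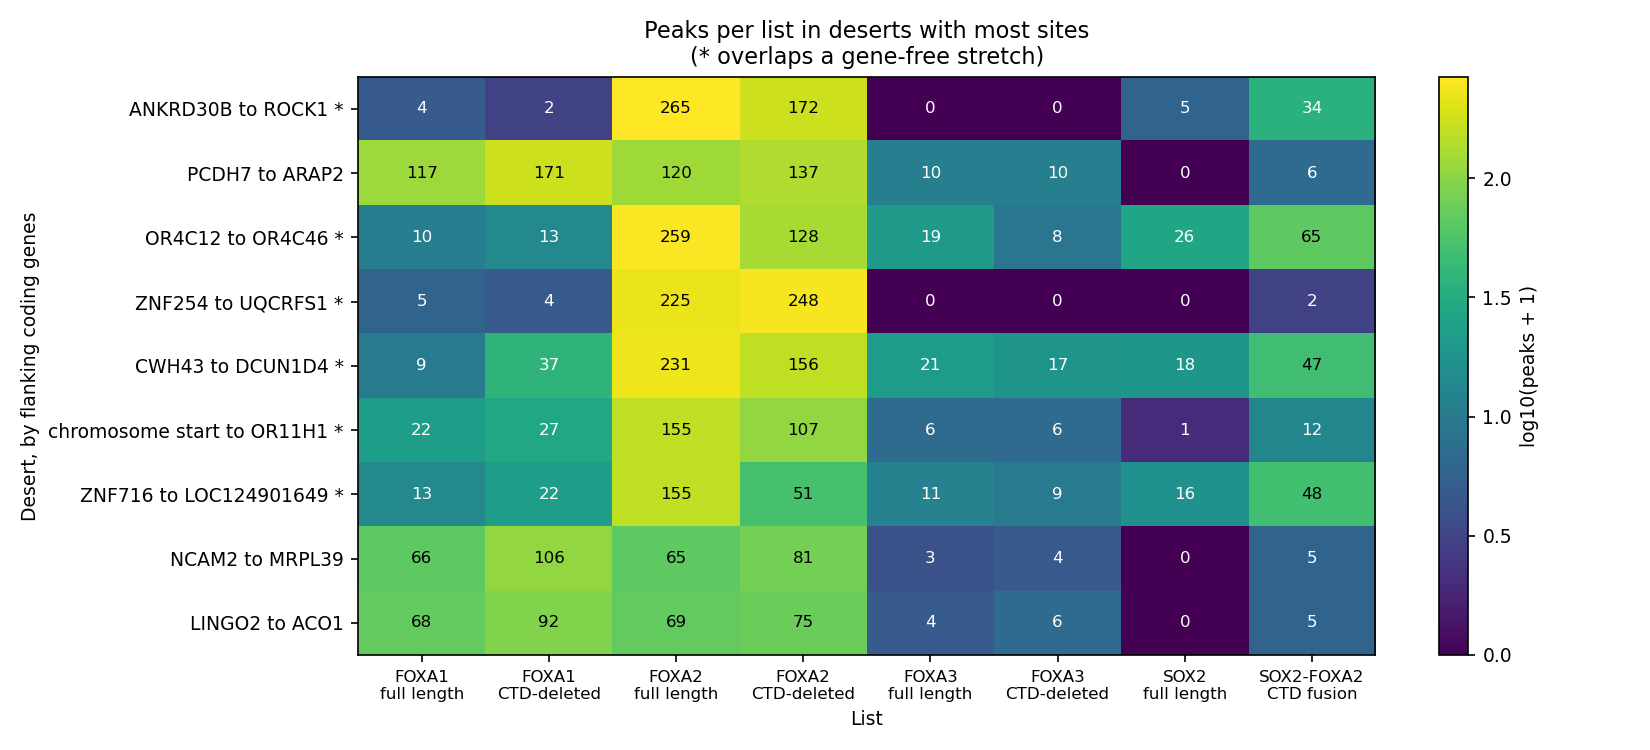
Cells give the number of peaks of each list (columns) in the deserts described above that hold most merged sites (rows, named by flanking coding genes), coloured by log10 of the number plus 1; an asterisk marks deserts that overlap a gene-free stretch. FOXA1 counts are 2 to 37 in the marked deserts and 66 to 171 in the others.

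Among the 159 deserts of 500 kb or more that were clear of the stretches, site density varied widely, with a median of 41.3 sites per Mb and quartiles of 22.1 and 54.9. Peak densities of the FOXA1 and FOXA2 lists rose and fell together over these deserts. Spearman's rho of peaks per Mb was 0.892 between the FOXA1 lists, 0.886 between the FOXA2 lists, 0.850 between full-length FOXA1 and FOXA2 and 0.772 between their CTD-deleted forms. These describe deserts of 1 genome and lists of the same cell line, and carry no p-value.

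The coding genes on either side of the 327 deserts numbered 602. Of these 24 belonged to the transcription factor families listed by symbol and 21 were cadherins or protocadherins, adhesion proteins of which many act in the nervous system. These are 3.99% and 3.49% of the flanking genes, against 1.10% and 0.469% of all coding genes. Of 26 deserts beside such a transcription factor 24 held a site, and of 21 beside a cadherin 20 did. Of all 327 deserts 304 did, a similar share. Site density outside the stretches was 39.2 per Mb beside transcription factors, 44.5 beside cadherins and 40.3 in the other 257 deserts, so these classes were close. Chosen after their values were seen, the desert between CDH10 and CDH9 had 128.7 sites per Mb (159 sites), that between KCNJ2 and SOX9 had 84.0 (79 sites) and that between GATA3 and CELF2 had 48.3 (67 sites). A flanking gene gives a position and is not a target.

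Annotated noncoding genes were met about as often as their extent in deserts. Outside the stretches long noncoding RNA genes cover 20.8% of desert territory. They contained 21.7% of FOXA1 full-length desert summits (744 of 3421, 20.4 to 23.2%), 21.6% after deletion, 18.7% of those of FOXA2 at full length (17.5 to 20.0%) and 20.4% after deletion. FOXA3 had 23.4% and 23.7%, with intervals that include the territory's share, and the fusion 19.6%.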

How the data were processed

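Flag ChIP-seq peak lists of 8 genotypes in U2OS cells were used as deposited, 1 combined list per genotype made from 2 replicates by the authors, in the 20-column layout of IDR. The submitters' processing notes name FastQC 0.10.1, Trim Galore, Bowtie2 2.4.4, SAMtools 0.1.18, MACS2, deepTools 2.4.1 and the build hg38; the IDR version and limit are not given in the sources used here. The deposited score (125 times log2 of 1 over the IDR, as read from the values) served for IDR limits. The deposited −log10 p of each replicate, in columns without a replicate number, served as strength. Of 14 deposited lists 10 were used, 8 combined and 2 of the first replicate; the other 4 were copies of combined lists. Read numbers were not used, so depth is unknown.

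Positions are 1-based. Coding genes came from the RefSeq table of GRCh38.p14. Genes of unplaced scaffolds that the table gives under a chromosome's name (679, of which 153 coding) were left out, which leaves 19821 coding genes. A shared peak overlapped by at least 1 bp, and a neighbour's summit was within 10 kb. Shares have Wilson and differences Newcombe 95% intervals, and no p-value was computed. Territory was counted every 100 bases. Named regions were fixed by rule: the 2 strongest desert peaks and the farthest of each list, the 10 deserts with most sites, up to 5 sites in most lists, and the peaks at the limit; the strongest peaks and most shared sites outside the gene-free stretches were added after their values were seen. Regions of this rule that the text leaves out are not reported here. The members and lists were chosen with earlier results of these data known. Functions were tested on simulated data. Python 3.11.15, numpy 2.4.6 and pandas 2.3.3 were used. Alternatives were other distances, IDR limits, equal list lengths, overlaps and neighbour distances, the gene-free stretches left out, the first replicate's lists and the shared FOXA3 rows left out.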

Additional observations from a re-analysis of the deposited data

Results flagged for a closer look

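The change of the desert share on CTD deletion went in opposite directions in the FOXA1 and FOXA2 pairs, 1.69 points and −2.59 points, which are 4.28 points apart. It is named here because the 2 pairs moved opposite ways under the same contrast. Each genotype has 1 combined list, so the difference between the pairs was not tested. Outside the gene-free stretches the changes were 1.61 and −0.951 points, with the same signs.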

How the results depend on the processing

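Of 81 values under alternatives, for 21 results, 45 lay inside the main value's interval, 33 moved out of it and 3 changed sign where the main interval excluded 0. The cause of a change was not tested. The difference in desert share for more than 250 kb was 3.26 points in the FOXA1 pair, and for more than 1000 kb 0.478 (FOXA1) and −1.96 (FOXA2). At the stricter IDR limit it was −3.55 (FOXA2) and −7.32 (SOX2), and among as many of the strongest peaks in each list −20.3 (SOX2). Without the gene-free stretches it was −0.951 (FOXA2) and, with a changed sign, 0.590 (SOX2). In first-replicate lists it was −4.76 for SOX2, and −0.886 also without the stretches. Without the shared FOXA3 rows it was −16.3, and with them left out of both lists −13.7. The settings behind −0.886 and −13.7, and keeping the scaffold genes, which moved no share difference out of its interval, were chosen after seeing the data.

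Sharing, desert minus rest, at the stricter IDR limit was 1.12 (FOXA1 full length), −7.96 (FOXA2 full length), 0 (FOXA3 full length), −6.11 (FOXA3 CTD-deleted) and 45.3 points (fusion). With 50% overlap it was −3.39 (FOXA2 full length). Without the stretches it was −2.66 and 3.00 (FOXA2 full length and CTD-deleted), and, with changed signs, 0.127 (FOXA3 full length) and −0.0801 (fusion). Without the shared FOXA3 rows it was −13.4 (full length) and 7.33 (CTD-deleted).

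Clustering, desert minus rest, within 50 kb was 5.35 (FOXA1 CTD-deleted), 5.08 and 1.70 (FOXA2 full length and CTD-deleted), 36.2 (SOX2) and 13.95 points (fusion). At an IDR of at most 0.05 it was 4.51 and 12.2 (FOXA2), and without the stretches 3.38 and 0.684 (FOXA2) and 25.03 (SOX2, 7 desert peaks). Desert sites in 2 or more lists were 41.7% beyond 1000 kb and 44.5% without the stretches.

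No paired analysis was possible because each group has 1 combined list and no result comes from a test. The planned motif search under the peaks was not run, since no genome was used here; only promoter windows were searched. Depth, copy number and mappability of U2OS were not measured, and intervals cover counting error over peaks only.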
